A study of Mus musculus with 60 samples.

Results

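Loss of Glo1 was examined in the prefrontal cortex of mice that ate either of 2 diets. The comparison took all 20 libraries of this region out of the 60 libraries of the series, 10 from Glo1 knockout (KO) mice and 10 from wild-type (WT) mice. It asked for the effect of genotype with diet as a covariate. Each genotype was split into 5 mice on a normal diet and 5 mice on a vitamin B6-lacking diet, whose pellets held 1.4 mg and 5 µg of the vitamin per 100 g, both fed between 8 and 12 weeks of age. Every mouse gave 1 poly(A)-selected library of single 75-bp reads from each of 3 brain regions. How the knockout allele was made, the strain, the sex and whether the mice were littermates are not given in the sources used here.

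Glyoxalase I, the product of Glo1, acts on the adduct that methylglyoxal forms with glutathione. Methylglyoxal is a reactive by-product of glycolysis that modifies proteins and DNA, and the second enzyme of the pathway, encoded by Hagh, releases lactate and returns glutathione. Vitamin B6 is taken up, converted to pyridoxal phosphate and used as the cofactor of enzymes that make GABA, serotonin and dopamine, and 1 of its forms, pyridoxamine, traps reactive carbonyl compounds such as methylglyoxal. Glo1 lies on mouse chromosome 17, which also carries the major histocompatibility complex and many zinc finger genes.

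Genotype and the batch label coincided. All 10 KO libraries carried batch 1 and all 10 WT libraries carried batch 2, so every difference between genotypes below is also a difference between batches, and the 2 cannot be told apart. Totals were between 8704715 and 11485734 counts per library in WT mice and between 9578705 and 13911503 in KO mice, a mean difference of 1889690 counts (permutation test, two-sided, p = 0.00834, n = 10 per genotype). RNA integrity numbers were 8.33 ± 0.330 in WT and 8.46 ± 0.481 in KO mice (SD, n = 10, permutation p = 0.512). The vitamin B6 level on the labels was between 58.25 and 78.09 ng/µl on the normal diet and between 2.25 and 5.63 ng/µl on the lacking diet; the material measured was not named. The tissue label was checked against markers. The 12 markers of cortical excitatory neurons summed to between 4493 and 5686 counts-per-million units (CPM) in the 20 libraries, and 10 markers of striatal projection neurons to between 235 and 323 CPM, against at least 8905 CPM in the striatal libraries of the same mice. The 8 markers of hippocampal neurons summed to between 205 and 306 CPM, against at least 1459.7 CPM in the hippocampal libraries; the excitatory sum did not separate these regions, at 4403 to 5742 CPM in hippocampus. The p-values below measure the spread between mice.

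Glo1 itself (chr17:30592861-30612659 in mm10, minus strand) separated the genotypes in every library. CPM values, scaled by trimmed mean of M-values (TMM), had a lowest, median and highest value of 35.1, 39.1 and 47.5 in WT mice and of 0, 0.420 and 0.689 in KO mice. No KO library overlapped a WT library. KO libraries held between 0 and 9 reads of the gene and WT libraries at least 342; KO mouse 268 on the normal diet had 0 reads, which allows up to 0.216 CPM in counting error. The mean was 103-fold lower in KO mice, with a log2 fold change of -6.69 (SE 0.166; edgeR quasi-likelihood test, Benjamini-Hochberg (BH)-adjusted p 4.75e-23). The 250 bases before the start of the gene (RefSeq, GRCm38.p6, chr17:30612660-30612909, minus strand) are shown because Glo1 is the gene knocked out in these mice. Capitals mark matches on either strand to CCAAT, the box bound by NF-Y, and to CCGCCC, the GC box, 2 of whose 3 matches overlap.
Glo1: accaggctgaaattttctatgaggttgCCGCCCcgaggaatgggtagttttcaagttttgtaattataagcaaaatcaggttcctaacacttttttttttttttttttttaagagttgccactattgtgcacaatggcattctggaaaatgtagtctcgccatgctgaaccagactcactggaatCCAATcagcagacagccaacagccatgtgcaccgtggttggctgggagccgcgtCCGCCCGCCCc
A CCAAT match occurred in 33.8% and a CCGCCC match in 32.7% of 32851 RefSeq promoter windows of this length. Where the knockout allele was altered relative to this window is not given in the sources used here.

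Beyond Glo1, most genes that passed the threshold were lower in KO mice, and the large changes lay on chromosome 17. Of 13223 genes tested, 95 passed a BH-adjusted p of 0.05 in edgeR (0.718% of those tested), 17 of them higher in KO mice (0.129%) and 78 lower (0.59%). On chromosome 17, 38 of 607 genes passed (12 higher and 26 lower), against 57 of 12588 elsewhere (5 higher and 52 lower). All 17 genes that changed more than 2-fold lay on chromosome 17, and no called gene elsewhere had an absolute log2 fold change above 0.86. The CPM of the 10 KO and 10 WT libraries did not overlap for 13 genes (0.0983% of those tested), which were Glo1, 11 other genes of chromosome 17 and Sparc on chromosome 11. An unadjusted p under 0.05 was reached by 1878 genes. Over all genes tested the median log2 fold change was 0.00056, and 6646 of the 13223 had a positive value. With DESeq2 222 genes passed, 70.3% of them lower, and with the RNA integrity number as a covariate 198 passed, 72.2% of them lower, against 82.1% of the 95. Leaving out 1 library moved the count of 95 by over 1.5 times for 12 of the 20 libraries. Without WT mouse 226 it was 308, without WT mouse 283 it was 162, and without KO mice 267 and 268 it was 186 and 204. It fell to 61, 53, 59 and 56 without WT mice 225, 259, 272 and 317, and to 60, 55, 49 and 48 without KO mice 339, 368, 381 and 390. Of the 38 called genes on chromosome 17, 31 passed in all 20 of these fits, and of the 57 elsewhere 13 did.

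**Figure D1:**
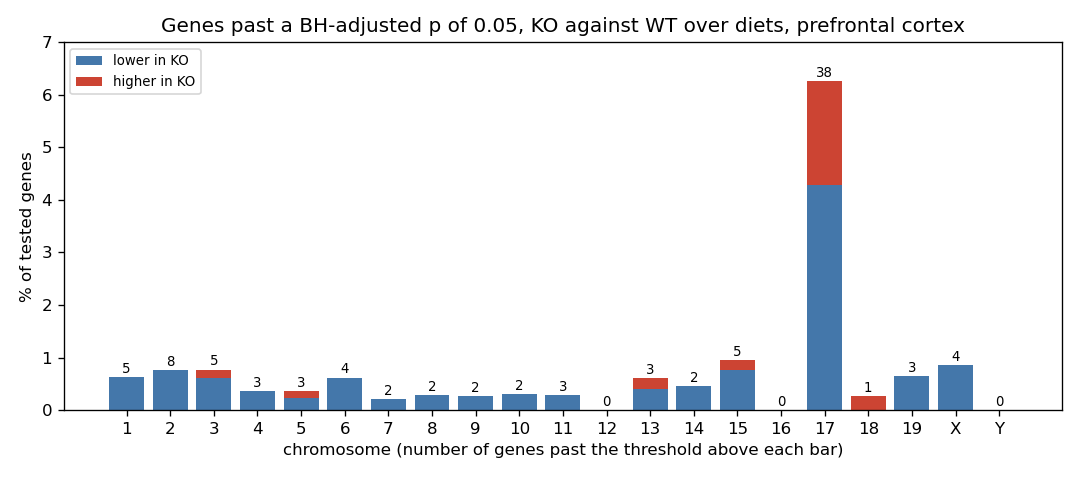
Share of tested genes on each chromosome that passed a BH-adjusted p of 0.05 for KO against WT over diets (bar height, in % of tested genes; blue, lower in KO; red, higher in KO), with the number of called genes above each bar. Chromosome 17, with 38 called genes, stands above all other chromosomes, where between 0 and 8 genes were called.

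Along chromosome 17 the called genes ran from Rsph3b, whose start is at 6.90 Mb, to Enpp4 at 44.1 Mb, and none of 229 tested genes farther on passed. Counted in windows of 10 Mb from the centromeric end, 5 of 25, 4 of 36, 20 of 164, 4 of 139 and 5 of 76 tested genes passed in the first 50 Mb. They did not cluster most densely at Glo1 itself. Within 5 Mb of it, and without counting Glo1, 5 of 187 tested genes passed. Between 5 and 10 Mb away 18 of 115 passed, and between 10 and 15 Mb away 8 of 33. The 5 nearest tested genes on each side (Btbd9, Zfand3, Mdga1, Cmtr1 and Ccdc167 towards the centromere, Dnah8, Abcg1, Rsph1, Slc37a1 and Pde9a away from it) all failed the threshold. Their smallest adjusted p was that of Rsph1 (log2 fold change 0.55, SE 0.178, edgeR BH-adjusted p 0.143).

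**Figure D2:**
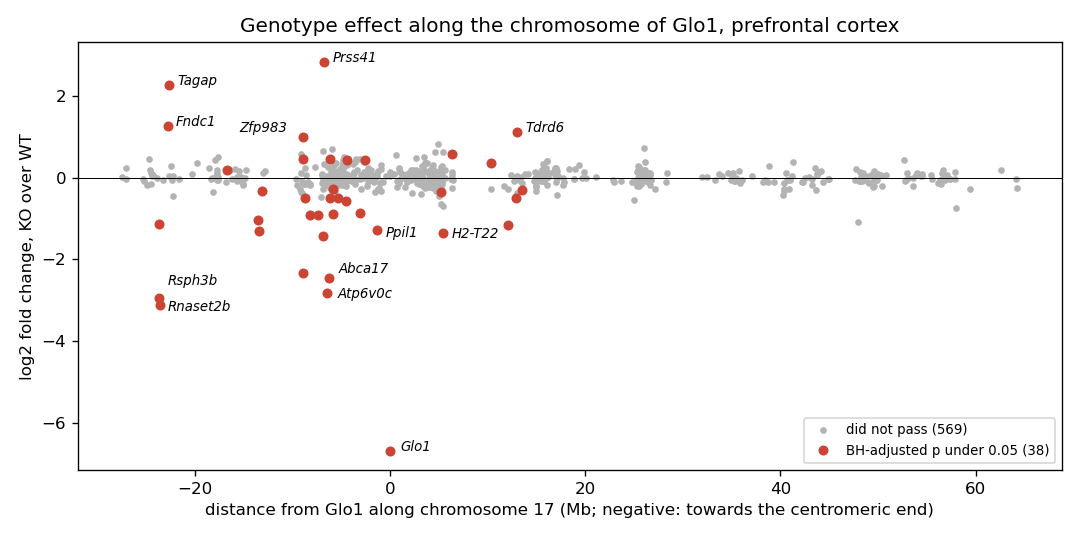
Log2 fold change of KO over WT for the 607 tested genes of chromosome 17, by distance from Glo1 in Mb (negative towards the centromeric end); red points passed a BH-adjusted p of 0.05 (38 genes) and grey points did not. Called genes lie on both sides of Glo1 and in both directions, and stop at 44.1 Mb on the chromosome.

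Among the genes that fell on chromosome 17, the change reached several fold. Atp6v0c encodes the proteolipid subunit of the membrane ring of the vacuolar proton pump (V-ATPase), which acidifies lysosomes and synaptic vesicles. It had 3.38, 9.40 and 15.3 CPM in WT mice (lowest, median, highest) and 0.483, 1.16 and 2.73 CPM in KO mice, without overlap (log2 fold change -2.83, SE 0.257, edgeR BH-adjusted p 2.76e-08). The WT values spread widely, with WT mice 317 and 241 lowest, at 3.70 and 3.38 CPM. Of its 75-base stretches 9.24% also occurred in its pseudogenes. Ppil1, a prolyl isomerase of the spliceosome, had 5.00, 7.39 and 8.93 CPM in WT and 2.24, 3.05 and 3.80 CPM in KO mice, again without overlap (-1.28, SE 0.130, edgeR BH-adjusted p 2.42e-07). Smaller falls with separate genotypes were those of Pla2g7, which degrades platelet-activating factor (-0.51), Decr2, a peroxisomal reductase of fatty acid oxidation (-0.58), and Gnptg, a subunit of the enzyme that tags lysosomal proteins with mannose phosphate (-0.50); 46.2% of the stretches of Gnptg also occurred in Unkl, which overlaps it on the other strand. Rnps1, a splicing factor, fell by 0.51 on the log2 scale with overlapping groups.

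Zinc finger genes changed in both directions. Zfp40 (chr17:23173869-23193284) had 54.5, 67.0 and 75.9 CPM in WT and 28.7, 32.8 and 42.7 CPM in KO mice, so that every KO value was below every WT value (-0.92, SE 0.0776, edgeR BH-adjusted p 6.82e-09). Zfp758 had 24.5, 25.6 and 31.5 CPM in WT and 10.5, 14.1 and 18.8 CPM in KO mice, also without overlap (-0.91). Zfp983 was higher in KO mice, with 6.30, 7.38 and 14.3 CPM in WT and 13.7, 16.98 and 19.5 CPM in KO mice (0.99, SE 0.121, edgeR BH-adjusted p 7.81e-06). The highest WT library lay above the lowest KO library, and the remaining WT values were below it. Of 45 tested genes of chromosome 17 whose symbol starts with Zfp, 5 fell and 2 rose (Zfp983 and Zfp760), and of 309 such genes on other chromosomes none passed; the shares over all genes were 6.26% on chromosome 17 and 0.453% elsewhere.

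The class I molecules of antigen presentation gave a pair of lower genes. H2-T22 (chr17:36037128-36042742), a non-classical class I heavy chain, had 4.54, 8.35 and 11.05 CPM in WT and 1.74, 2.94 and 5.57 CPM in KO mice (-1.36, SE 0.162, edgeR BH-adjusted p 5.42e-06). Only the lowest WT library, that of mouse 273, lay within the KO range. B2m (chr2:122147687-122153082), the light chain shared by class I molecules, had 218, 320 and 430 CPM in WT and 178, 224 and 337 CPM in KO mice, with overlap (-0.44, SE 0.0988, edgeR BH-adjusted p 0.0256). B2m lost its call in limma on log2(RPKM + 1) and in the fit of all 60 libraries. It also lost its call without WT mouse 259 or 317 or KO mouse 325, 339, 368, 381 or 390 (edgeR BH-adjusted p up to 0.0666). Of 17 tested genes of class I presentation these 2 were called lower and none higher, beside 0.718% of all genes and 6.26% of those on chromosome 17. The list median was -0.06, and 6 of the 17 had a positive log2 fold change, the largest being 0.617. H2-T23, also on chromosome 17, did not pass (-0.70, BH-adjusted p 0.0599 in edgeR). Of the 75-base stretches of H2-T22, 40% also occurred in H2-T10 or other genes, so reads of the 2 could be split differently by the counting. The 250 bases before both genes are shown because these encode the light and a heavy chain of class I and were both called lower. Capitals mark matches on either strand to CCAAT, to a core of the interferon-stimulated response element, and to TGACNNNGC, the core of the antioxidant response element. The windows (RefSeq, GRCm38.p6) were chr17:36042743-36042992, minus strand, for H2-T22 and chr2:122147437-122147686, plus strand, for B2m.
H2-T22: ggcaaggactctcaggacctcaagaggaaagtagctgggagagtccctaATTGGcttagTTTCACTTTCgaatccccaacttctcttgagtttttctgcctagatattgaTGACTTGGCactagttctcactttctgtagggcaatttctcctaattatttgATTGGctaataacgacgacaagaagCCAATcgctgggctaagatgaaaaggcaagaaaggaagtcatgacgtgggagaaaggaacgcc
B2m: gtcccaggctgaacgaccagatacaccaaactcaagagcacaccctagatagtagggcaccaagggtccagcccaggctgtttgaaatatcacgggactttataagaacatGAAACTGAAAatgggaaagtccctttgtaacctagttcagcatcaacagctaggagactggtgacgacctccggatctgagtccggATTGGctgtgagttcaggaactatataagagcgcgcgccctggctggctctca
Both windows held 1 match to the interferon element, found in 2.98% of all windows, and CCAAT boxes, 3 in H2-T22 and 1 in B2m. The TGACNNNGC match was in H2-T22 only of the 2; 10.2% of all windows held it.

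The genes that rose on chromosome 17 included a matrix-domain protein, a lipid transporter and a protease. Fndc1, which carries fibronectin type III domains, had 1.19, 1.94 and 3.03 CPM in WT and 2.95, 4.79 and 7.17 CPM in KO mice (1.28, SE 0.176, edgeR BH-adjusted p 4.66e-05). The groups met only at the highest WT and the lowest KO library. Abca3, a lipid transporter, had 41.5, 48.7 and 58.8 CPM in WT and 53.9, 67.8 and 78.7 CPM in KO mice (0.47). Prss41, a serine protease, had a median of 0 CPM in WT and of 2.61 CPM in KO mice (2.84); 1 WT library, that of mouse 317, reached 2.71 CPM, within the KO range of 1.88 to 3.55 CPM, and without it the log2 fold change was 4.69. DESeq2 gave no adjusted p for this gene. Mut, the mitochondrial methylmalonyl-CoA mutase, rose by 0.35, Arhgdig, a GDP dissociation inhibitor, by 0.44, Anks1, an adaptor protein, by 0.42 and Tdrd6, a germline Tudor protein, by 1.12. Tdrd6 was low, with 0.291, 0.676 and 0.854 CPM in WT and 0.689, 1.33 and 1.77 CPM in KO mice, and its groups overlapped. Tdrd6 lost its call in limma on log2(RPKM + 1), and Anks1 lost it there, in counts thinned to equal depth and in the fit of all 60 libraries. Without WT mouse 259 or KO mouse 381 neither Arhgdig nor Anks1 passed, and Anks1 also failed without WT mouse 241, 272 or 317 or KO mouse 390 (edgeR BH-adjusted p up to 0.0584 and 0.0709).

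**Figure D3:**
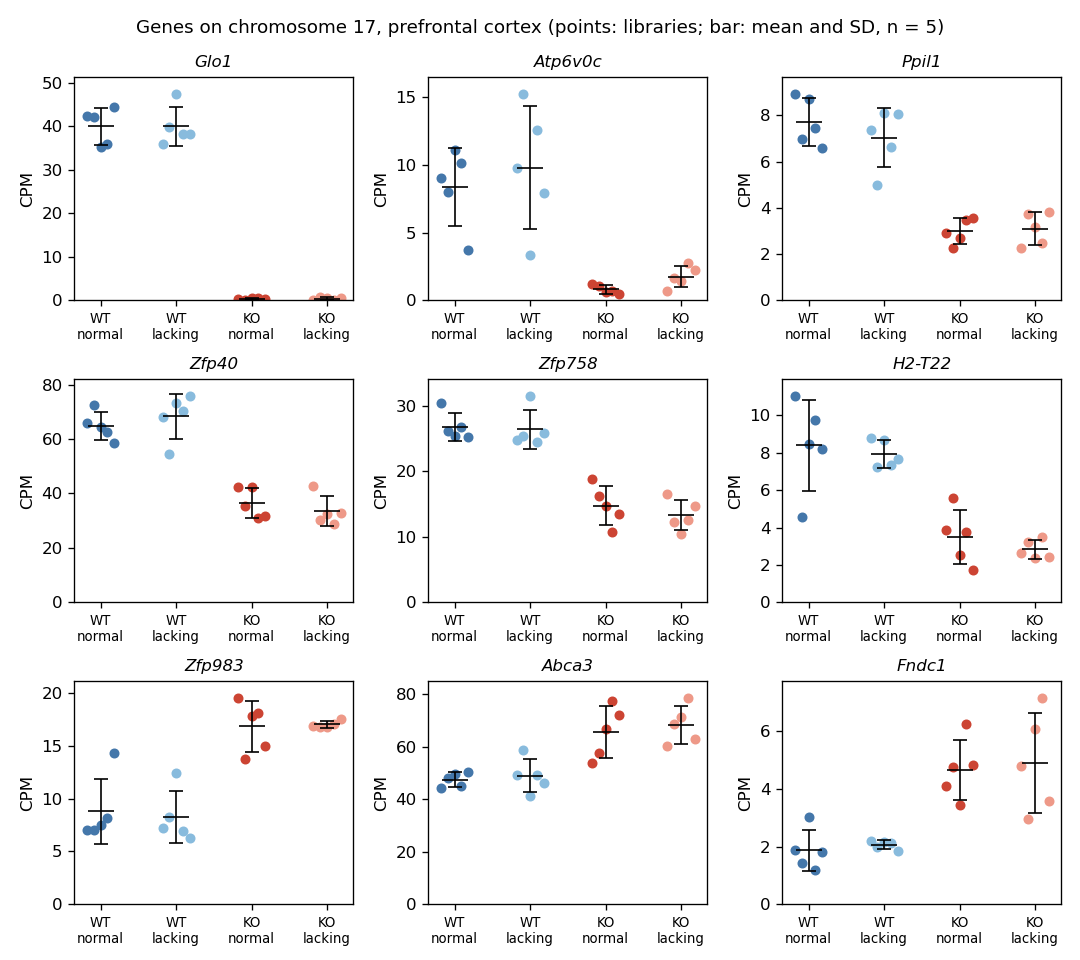
CPM of 9 genes of chromosome 17 in the 20 prefrontal libraries, by genotype and diet (points, libraries; bars, mean and SD, n = 5 mice per group; all axes start at 0). The first 6 genes are lower and the last 3 higher in KO mice on both diets, and Glo1 is at most 0.689 CPM in every KO library.

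At the centromeric end of the called stretch, several called genes have a near-identical copy, and their values are uncertain for that reason. Tagap, a GTPase-activating protein of lymphocytes, was higher in KO mice (0.107, 0.487 and 3.02 CPM in WT, 3.25, 4.40 and 5.22 CPM in KO; 2.27), while its copy Tagap1 was lower (4.96, 7.36 and 12.6 CPM in WT, 2.997, 3.84 and 4.92 CPM in KO; -1.14). Neither gene overlapped between genotypes. Of the stretches of Tagap 50.1% and of those of Tagap1 66.5% also occurred in other genes, each other included. Summed over the copies, the median was 8.30 CPM in WT and 8.14 CPM in KO mice. Rnaset2b, which shares 51.4% of its stretches with its ribonuclease copy Rnaset2a and other genes, was lower (-3.11), and the summed median of the copies was 2.44 CPM in WT and 0.497 CPM in KO mice. Rsph3b, a radial spoke gene of cilia, was lower (-2.96), while its copy Rsph3a, which was not called, had medians of 1.31 and 1.22 CPM. Their sum had a median of 2.89 CPM in WT and 1.41 CPM in KO mice. The sums were made after the values were seen.

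On other chromosomes the called changes were smaller and nearly all downward. The median log2 fold change of the 57 genes was -0.36. Sparc (chr11:55394159-55420080), a secreted matrix-binding protein made by glia and vessels, had 125, 147 and 164 CPM in WT and 92.8, 109 and 125 CPM in KO mice (-0.43, SE 0.0552, edgeR BH-adjusted p 1.62e-05). The highest KO library was just under the lowest WT library. Slc1a3, the glial glutamate transporter GLAST, had 1139, 1417 and 1718 CPM in WT and 1030.1, 1140.3 and 1368 CPM in KO mice, and the groups overlapped (-0.33, SE 0.0611, edgeR BH-adjusted p 0.00489). Fam107a, an actin-binding protein of astrocytes, fell by 0.35, Papss2, which makes the sulfate donor of sulfotransferases, by 0.43, Serpine2, a secreted protease inhibitor, by 0.25 and Lrrtm1, a postsynaptic adhesion protein, by 0.37. Glul, the astrocytic glutamine synthetase, chosen here after its values were seen, fell by 0.25 and passed in 8 of the 20 fits that left out 1 library. Ttll7, a tubulin polyglutamylase, rose by 0.21 and lost its call in the fit of all 60 libraries (edgeR BH-adjusted p 0.0911). It also lost its call without WT mouse 225, 259, 272, 273 or 286 or KO mouse 242, 368, 381 or 390 (edgeR BH-adjusted p up to 0.0776).

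Summed levels of most marker lists, neuronal lists included, had lower medians in KO mice, with overlapping ranges. Over all 13223 genes tested, 0.718% passed and 6646 had a positive log2 fold change. The 10 astrocyte markers summed to 10184, 11566 and 12713 CPM in WT (lowest, median, highest) and 9394, 10374 and 11608 CPM in KO mice. Most of this sum came from 2 genes, with TMM-scaled means of 8859 and 8155 CPM for Slc1a2 and 1447 and 1154 CPM for Slc1a3 in WT and KO mice. Of the 10 astrocyte markers 2 had a positive log2 fold change, 1 passed (Slc1a3), and the list median was -0.11. The 10 microglia markers summed to 390, 415 and 436 CPM in WT and 339, 382 and 409 CPM in KO mice, and 2 of 10 had a positive log2 fold change, with a list median of -0.032. Only 1 of them fell, P2ry12, the purinergic receptor of resting microglia (-0.38, SE 0.0804, edgeR BH-adjusted p 0.0177). The 8 meningeal markers summed to 125, 177 and 221 CPM in WT and 61.7, 131 and 213 CPM in KO mice, and 0 of 8 had a positive value (median -0.28). Igf2 alone had TMM-scaled means of 110 and 83.1 CPM in WT and KO mice. The 6 markers of oligodendrocyte precursors had a median of -0.13, also with 0 positive. Medians of the summed levels in WT and KO mice were 5312 and 5169 CPM for excitatory neurons, 1226 and 1182 for interneurons, 265 and 237 for hippocampal neurons and 572 and 529 for vessels. None of the markers of excitatory neurons, interneurons, oligodendrocytes, vessels, hippocampal neurons or blood passed. No marker on any list was at 0 in all 20 libraries, but some had means under 1 CPM. These were 7 of 8 markers of choroid plexus, 4 of 8 of hippocampal neurons, 3 of 10 of striatal projection neurons and 2 of 5 of blood. The part of cell composition in these results was not tested. In whole tissue, fewer cells of a type and less RNA per cell cannot be told apart.

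**Figure D4:**
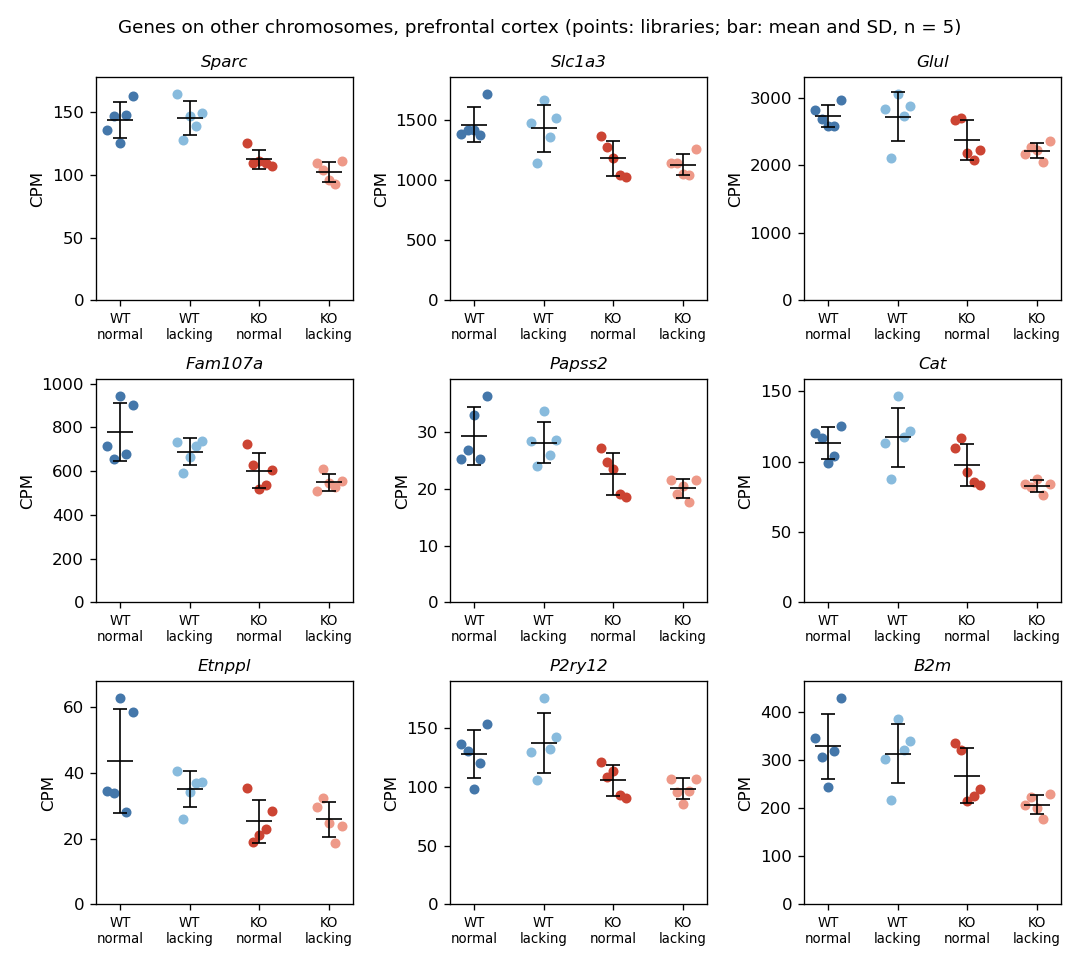
CPM of 9 called genes on other chromosomes in the 20 prefrontal libraries, by genotype and diet (points, libraries; bars, mean and SD, n = 5 mice per group; all axes start at 0). KO means are below WT means on both diets; Sparc alone of these 9 does not overlap between the 10 KO and 10 WT libraries.

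In the pathways around Glo1 only single members passed, beside 0.718% of all genes. Of 18 tested genes that detoxify methylglyoxal and other aldehydes only Glo1 passed; the median of the list was 0.035. Haghl, a relative of the second glyoxalase, had the next smallest p and lies on chromosome 17 (0.42, SE 0.117, edgeR BH-adjusted p 0.0820). None of 7 genes of vitamin B6 salvage and transport passed. Of 36 enzymes that use pyridoxal phosphate 1 fell. This was Etnppl, which cleaves phosphoethanolamine, with 26.1, 35.7 and 63.0 CPM in WT and 18.9, 24.4 and 35.3 CPM in KO mice (-0.61, SE 0.137, edgeR BH-adjusted p 0.0256). Its groups overlapped, and its call was lost in limma on log2(RPKM + 1) and without WT mouse 225, 259 or 317 or KO mouse 339, 368 or 381 (edgeR BH-adjusted p up to 0.06495).

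Each redox and energy list held 1 or 2 called genes. Of 43 antioxidant and glutathione genes Cat, the catalase that removes hydrogen peroxide, fell (87.8, 117 and 147 CPM in WT, 76.1, 84.8 and 117 CPM in KO; -0.36, SE 0.0770, edgeR BH-adjusted p 0.0190), with overlapping groups. It lost its call in the fit of all 60 libraries (edgeR BH-adjusted p 0.0652) and without KO mouse 390 (edgeR BH-adjusted p 0.0500). Of 37 subunits of respiratory complex I 2 fell, Ndufc2 (-0.40) and Ndufb10 on chromosome 17 (-0.29), and of 40 subunits of complexes II to V Cox6c fell (-0.43). The list medians were -0.015 and -0.0044. Ndufb10 and Cox6c lost their calls in 8 and 5 of 12 alternative settings and in 16 and 14 of the 20 fits that left out 1 library, and Ndufc2 lost it without WT mouse 317 or KO mouse 368, 381 or 390 (edgeR BH-adjusted p up to 0.0579). Of 18 V-ATPase subunits only Atp6v0c passed, and the list median was 0.025. Of 76 tested cytosolic ribosomal proteins, a list made after the values were seen, 5 fell (Rpl38, Rps2, Rpl39, Rpl13 and Rps21) and none rose, beside 0.718% of all genes, with a list median of -0.028. Rps2 lies on chromosome 17, Rps21 passed in 6 of the 20 fits that left out 1 library, and Rpl39 lost its call in the fit of all 60 libraries (edgeR BH-adjusted p 0.104). Among 22 genes of GABA signalling, 24 glutamate receptors, 23 genes of monoamine signalling, 25 immediate early genes, 25 heat shock and unfolded protein genes, 31 proteasome subunits and 43 potassium channels none passed.

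Genotype effects on the called genes had the same sign on both diets. On the normal diet 16 genes passed (0.121% of those tested) and on the lacking diet 31 (0.234%), of which 16 and 29 were among the 95. All 95 genes had the same direction on both diets; they were called on both diets together, which favours this. The effect was larger on the lacking diet for 46 of the 57 genes off chromosome 17 and for 21 of the 38 on it. For the 57 genes the median log2 fold change was -0.28 on the normal and -0.42 on the lacking diet. Sparc had -0.35 and -0.50, Cat -0.21 and -0.50, and Lrrtm1 -0.22 and -0.52 on the normal and lacking diets, while Etnppl had -0.79 and -0.43. The test of the difference between diets called 0 of 13223 genes (0%, edgeR; DESeq2 also gave 0), with 419 at an unadjusted p under 0.05 and a smallest adjusted p of 0.9997. A difference between the diets was therefore not shown for any gene. Without WT mouse 272 or 273 the normal-diet count was 8 or 9; the lacking-diet count was 217 without WT mouse 226, 18, 16 and 15 without WT mice 225, 246 and 259, and 19 without KO mouse 325 or 452. DESeq2 called 88 and the fit with the RNA integrity number 47 genes on the lacking diet.

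**Figure D5:**
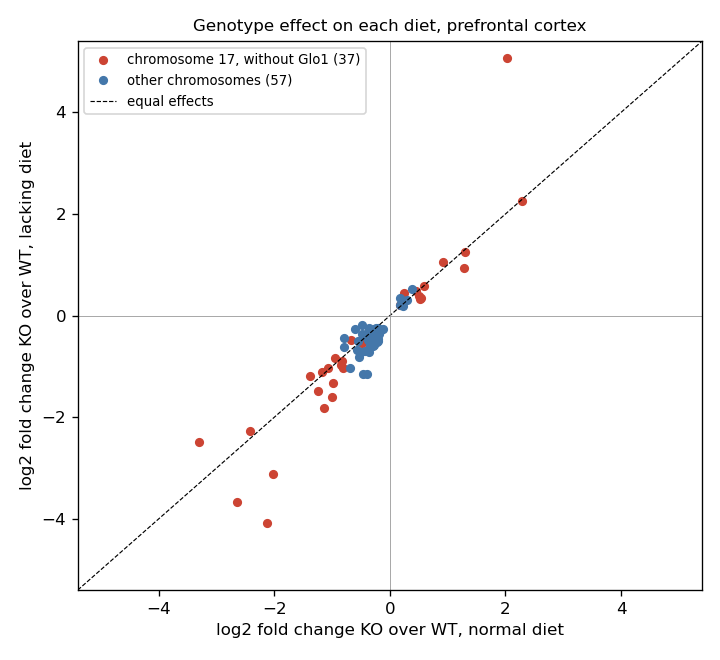
Log2 fold change of KO over WT on the lacking diet against that on the normal diet for 94 of the 95 called genes, without Glo1 (red, 37 genes of chromosome 17; blue, 57 genes of other chromosomes; dashed line, equal effects). All points lie in the lower left or upper right, on the same side of 0 on both axes; the point farthest from the line is Prss41, with 2.03 on the normal and 5.08 on the lacking diet.

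The striatum and hippocampus of the same mice gave the same comparison, with the same batches. There, 28 of 13311 genes (0.21%) and 21 of 13393 genes (0.157%) passed in edgeR. Of the 95 prefrontal genes 21 also passed in the striatum (22.1% of the 95, 75% of the striatal calls) and 17 in the hippocampus (17.9% and 81.0%), all of them on chromosome 17. The chromosome 17 genes kept their sign in 33 of 36 tested in the striatum and 32 of 35 in the hippocampus. For the genes elsewhere the signs matched for 37 and 39 of 57, with median log2 fold changes of -0.012 and -0.044. Striatal and hippocampal values were -0.20 and -0.10 for Sparc and -0.045 and -0.060 for Slc1a3, none of which passed; Glo1 had -6.38 and -7.25. A test of the difference between regions called 0 of 13930 genes for prefrontal cortex against striatum (0%, edgeR), with 1279 at an unadjusted p under 0.05, and 1 gene against hippocampus (0.00718%), with 842. That gene was Fndc1, whose log2 fold change was 1.28 in prefrontal, 0.88 in striatal and -0.014 in hippocampal libraries (difference from hippocampus 1.29, SE 0.234, edgeR BH-adjusted p 0.0120). For all other genes, a call in the prefrontal cortex and not in another region was not shown to be a difference between regions.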

How the data were processed

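RNA-seq was measured in 20 prefrontal libraries (4 groups of 5 mice). The authors deposited raw whole-number counts and RPKM values, which divide counts by transcript length and depth, for 21999 genes; reads were processed with STAR 2.7.1a and HTSeq 0.9.1 on mm10, per the submitters' processing notes, and whether counting used strand is not given in the sources used here. Column names gave the sample of each column, and 0 value columns stayed without a sample. The deposited RPKM values were used in 1 alternative only, as log2(RPKM + 1) with limma 3.58.1.

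Counts were filtered with filterByExpr over the 4 groups (minimum count 10, minimum total 15), scaled by TMM and fitted with edgeR 4.0.16 in R 4.3.3 by quasi-likelihood F-tests, two-sided, with diet and genotype as terms; p-values were BH-adjusted over all 13223 genes, with a threshold of 0.05. The effects within diets and their difference used 1 mean per group. The differences between regions used all 60 libraries. Depth and RNA integrity were compared by permutation tests with 100000 resamples. Gene positions came from RefSeq (GRCm38.p6) and GENCODE M21 by symbol; 107 of 21999 symbols matched no gene. Copies were checked as the share of a gene's 75-base transcript stretches found in another gene, overlapping genes included; where genes overlap on opposite strands, their reads may not be separable. Promoters were looked up for the named genes, and 39 of 51 had 1 in RefSeq; the motifs were searched on both strands.

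Named genes were Glo1, the called genes with the smallest p (12 higher, 14 lower and 8 off chromosome 17), the called members of each gene list, and 5 tested neighbours of Glo1 on each side; some genes that this rule names are not reported here. The comparison and the gene lists were chosen with earlier results of these data known. Libraries of 1 mouse from different regions share that mouse; their mean residual correlation was 0.047 over 60 pairs, against -0.011 for different mice of a group. The 40 pairs of libraries within a group differed by a chi-square per gene of between 1.94 and 20.1, so none were copies. A floor of 3 counts was between 0.216 and 0.345 CPM per library, which covers counting error only. Alternatives were DESeq2 1.42.0, no TMM, other filters, other designs, limma, thinned counts, TMM without chromosome 17 and each library left out. The steps were tested on simulated data.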

Additional observations from a re-analysis of the deposited data

Results flagged for a closer look

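For 41 called genes, the RNA integrity number and the library total, 86 groups of 10 libraries of 1 genotype were checked for a library far from the others, and 6 had one; chance gives about 1 in 20. In KO mice, Rnps1 was 34.04 CPM in mouse 339 on the lacking diet, against 27.51 to 30.39 in the others, and Rpl38 was 94.3 CPM in mouse 267 on the normal diet, against 54.86 to 74.73. In WT mice, mouse 226 on the lacking diet had 58.76 CPM of Abca3 (others 41.45 to 50.35) and 565.6 CPM of Ttll7 (others 474.3 to 522.7). WT mouse 317 on the normal diet had 2.707 CPM of Prss41, against 0 to 0.3904 in the other WT mice. WT mouse 241 on the lacking diet had 54.26 CPM of Lrrtm1, against 36.84 to 45.21.

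The genotype effect on Fndc1 differed between the prefrontal cortex and the hippocampus by 1.294 on the log2 scale (edgeR, BH-adjusted p 0.01202), with higher values in KO mice in the prefrontal cortex and a fold change near 0 in the hippocampus.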

How the results depend on the processing

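The 95 calls over diets became 222 with DESeq2 and 198 with the RNA integrity number as a covariate, of which 92 and all 95 were shared. The other 10 settings gave between 68 and 123; without TMM 72.9% of 85 calls were lower. Leaving out 1 library gave between 48 and 308, with between 32 and 53 calls on chromosome 17. The normal-diet count was between 16 and 21 in the settings with all libraries and between 8 and 21 when 1 library was left out. The lacking-diet count was 88 with DESeq2 and 47 with the RNA integrity number, and between 15 and 217 without 1 library. The interaction stayed at 0 in every setting run. For prefrontal cortex against striatum the count of 0 became 2 without TMM, and was between 0 and 1 when 1 library was left out, the 1 without WT mouse 241. In the paired fit, with a block for each mouse, the counts of genes that differed between regions were 0 (striatum) and 1 (hippocampus), and no call changed. The causes were not tested. Of 41 named genes that passed, 26 kept their call in all settings that gave a value, and none reversed. B2m lost its call in 2 settings, and Rpl39, Lrrtm1, P2ry12 and Ndufc2 in the fit of all 60 libraries. Genes near the floor of 0.216 to 0.345 CPM, such as Rnaset2b, Rsph3b and Tdrd6, have fold changes that depend on few reads.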

Other observations

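Other called genes off chromosome 17, chosen after their values were seen, also fell in KO mice. Vim, an intermediate filament of glia and vessels, had medians of 33.6 CPM in WT and 24.8 CPM in KO mice (log2 fold change -0.41), Mt2, a metallothionein, 22.4 and 13.2 CPM (-0.62), and Timp3, an inhibitor of matrix proteases, 267 and 221 CPM (-0.31). The neuronal genes Cplx2, a complexin of synaptic vesicle release, and Nos1, the neuronal nitric oxide synthase, fell by 0.20 and 0.25. Samhd1 and Ifitm2, known for restricting viruses, fell by 0.32 and 0.71. All 7 overlapped between genotypes, and their adjusted p in edgeR was between 0.0177 and 0.0466. Of the 20 fits that left out 1 library, Samhd1 passed in 19, Timp3 in 10, Vim and Cplx2 in 8 each, Nos1 in 7, Mt2 in 6 and Ifitm2 in 5.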
